A study of Mus musculus with 20 samples.

Results

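The interferon response genes described here were 41 mouse genes chosen by name, with earlier results of these data known. Among them were nucleic acid sensors, guanylate binding proteins, antiviral effectors, interferon regulatory factors and genes of antigen processing. Matched by symbol, 38 of the 41 were in both deposited tables, out of 25067 genes in both. Gbp9 and Irf9 were in the chromatin table and not matched in the RNA table. Ifi27 was matched in neither by that symbol and was listed under the older symbol Ifi27l1, so it is left out of all counts and its values are given apart. The chromatin table therefore held 40 of the members.

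The study measured histone marks and RNA in germline stem cells (GSCs), the cultured counterpart of the spermatogonial stem cell, kept on a layer of fibroblast feeders. Knockout cells were Kmt2b FC/FC with Rosa26-CreERT2, made with 4-hydroxytamoxifen (4-OHT) at 1 μM. Control cells were Kmt2b F/F with the same Rosa26-CreERT2 and received ethanol. Rosa26 drives the inducible Cre in all cell types that carry it, and cells were taken 6 days after treatment. KMT2B is an enzyme that methylates histone H3 at lysine 4. H3K4me3, a mark of active or poised promoters, H3K27me3, the mark of Polycomb repression, RNA and input DNA had 2 knockout and 2 control libraries each. H3K9me3, a mark of heterochromatin, had 2 control libraries and 2 separate inputs; the treatment and day of harvest of the cells behind these are not given in the sources used here. Duplicate cell lines were used per the series' design text, but the labels do not say which line a replicate number stands for, so p-values measure the spread between these libraries. The loss of Kmt2b and the exposure to 4-OHT cannot be told apart in this design.

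As background, cells sense foreign nucleic acid through receptors such as MDA5, RIG-I and TLR3, which leads to the release of interferons. Type I interferons signal through IFNAR1 and IFNAR2 to the kinases JAK1 and TYK2 and the factor ISGF3, which includes STAT2 and IRF9 and binds interferon-stimulated response elements. Interferon gamma signals through IFNGR1 and IFNGR2, and many of its target genes carry gamma-activated sites. The induced genes block viral replication, present antigens and feed back on the pathway.

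Mapped reads per RNA library were 45771857 and 40029839 in knockout and 38458010 and 44372019 in control. The H3K4me3 libraries differed more, with 3830045 and 16578722 mapped reads in knockout and 10360152 and 18035122 in control, so the first knockout H3K4me3 library was the shallowest of the series. The H3K27me3 libraries held 10538531 to 14810135 mapped reads and their inputs 10967790 to 14405261. Kmt2b, listed as Wbp7, had 131 and 185 RPM (reads over the mapped total of the library, scaled as the unit's name says) of RNA in knockout and 142 and 150 RPM in control, with a log2 change of 0.09 (SE 0.16, limma adjusted p = 0.798). The reads were summed over the gene, so this level does not check the deletion of an exon. The 14 germ cell markers summed to 2290 and 2520 RPM in knockout and 2370 and 2300 RPM in control, with none at 0. Of these 14, limma called 2 higher in RNA (Gfra1 and Nanos2) and 0 lower, 6 were higher at an unadjusted p under 0.05, and the median log2 change was 0.29. Over all genes tested 3.01% were called higher, 16.5% were higher before adjustment, and the median was 0.06.

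Shown are promoters of the 4 members that rose in RNA and have a match to the core of an interferon-stimulated response element. ISGF3 and the interferon regulatory factors act through such elements, but whether these matches are in use was not tested. Each runs 5′ to 3′ on the gene's own strand from 250 bases before to 50 bases after the RefSeq start (GRCm38.p6), with the searched core in capitals, which is GAAA, any 2 bases and GAAA again, or TTTC, any 2 bases and TTTC where it lies on the other strand. Isg15 lies on the minus strand at chr4:156200769-156201068, Ifih1 on the minus strand at chr2:62646206-62646505, Gbp3 on the plus strand at chr3:142559794-142560093 and Gbp2 on the plus strand at chr3:142620413-142620712.
Isg15: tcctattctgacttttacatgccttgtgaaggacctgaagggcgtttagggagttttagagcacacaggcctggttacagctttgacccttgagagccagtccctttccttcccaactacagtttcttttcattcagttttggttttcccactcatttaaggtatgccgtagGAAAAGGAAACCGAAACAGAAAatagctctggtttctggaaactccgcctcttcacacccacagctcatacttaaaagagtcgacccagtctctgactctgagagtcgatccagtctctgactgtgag
Ifih1: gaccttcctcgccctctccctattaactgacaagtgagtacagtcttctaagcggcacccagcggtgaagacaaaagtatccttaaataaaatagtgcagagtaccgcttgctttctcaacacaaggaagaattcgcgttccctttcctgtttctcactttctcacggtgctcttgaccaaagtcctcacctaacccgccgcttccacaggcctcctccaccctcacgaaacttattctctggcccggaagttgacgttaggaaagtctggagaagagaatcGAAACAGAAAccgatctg
Gbp3: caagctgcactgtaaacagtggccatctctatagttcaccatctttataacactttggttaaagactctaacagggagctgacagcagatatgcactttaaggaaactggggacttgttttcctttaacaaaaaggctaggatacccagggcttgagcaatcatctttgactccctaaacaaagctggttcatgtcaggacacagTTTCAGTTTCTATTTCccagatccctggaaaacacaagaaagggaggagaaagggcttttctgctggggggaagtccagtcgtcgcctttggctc
Gbp2: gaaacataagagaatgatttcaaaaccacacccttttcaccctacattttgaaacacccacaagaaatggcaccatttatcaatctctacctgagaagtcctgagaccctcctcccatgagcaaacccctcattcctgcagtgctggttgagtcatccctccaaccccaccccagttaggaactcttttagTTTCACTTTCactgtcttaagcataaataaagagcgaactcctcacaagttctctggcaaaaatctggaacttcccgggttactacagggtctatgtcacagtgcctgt

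In the Isg15 promoter 3 overlapping cores began 78, 72 and 66 bases before the start, so that they joined into 1 stretch. The Gbp3 promoter shown held 2 overlapping cores, 45 and 39 bases before the start. A second RefSeq promoter of Gbp3, at chr3:142560106-142560405, held none and is not shown. In Gbp2 the core began 59 bases before the start, and in Ifih1 it began 32 bases after the start. Promoters were found in the RefSeq table for 30 of the 41 members, 36 promoters in all. This core, on either strand, was in 13 of the 36 (36.1%), against 1131 of all 32851 promoters (3.44%). The core of a gamma-activated site, TTC, any 3 bases and GAA, which reads the same on both strands, was in 9 of the 36 (25.0%), against 8.3% of all promoters. In 1 of the 36 promoters matches to the 2 motifs overlapped. Of the members tested in RNA, the response element core was in the promoters of 4 of the 7 matched genes that rose and of 7 of the 17 matched genes that were not called. The gamma-activated site core was in 1 of 8 promoters (12.5%) of the members that rose and in 6 of 20 (30.0%) of those not called. Such a match is a description of letters and does not show binding. The members with a core that did not pass the RNA test, or were too low for it, were Bst2, Ddx58, Eif2ak2, Gbp5, Gbp7, Ifit1, Ifit3, Rsad2 and Stat2.

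RNA of the interferon response genes was on the whole higher in knockout GSCs than in control GSCs. The genes that rose were Xaf1, Psmb8, Isg15, Ifih1, Tap1, Gbp3, Zbp1, Gbp2 and Parp9, by 1.51-fold to 2.58-fold, and no member fell. Of the 38 members in the RNA table, 31 passed the minimum level of a mean log2 RPM of 0 and were tested. Tlr3, Isg20 and Ifi44 averaged 0.697, 0.803 and 0.887 RPM in control and passed it only through their knockout libraries. They stay in the counts and the median below, where they are no support for a rise. By limma, 9 of the 31 (29.0%) were called higher at an adjusted p under 0.05 over all genes tested, against 425 of all 14100 genes (3.01%). Since the members were chosen with earlier results of these data known, such shares are a description and no test of the set. The count of members called lower was 0, against 0.312% of all genes, and limma-voom on the recovered reads also called 0 lower. At an unadjusted p under 0.05, 0 members were lower, against 3.6% of all genes. At an unadjusted p under 0.05, 20 of the 31 were higher, against 16.5% of all genes. The median log2 change of the members was 0.57, against 0.06 over all genes tested, and single members ranged from -0.20 to 1.37. Among all genes the split of calls was 425 higher and 44 lower on the deposited scale, but 266 and 114 when each library was centred on its median. Under that centring 7 members were called higher, all among the 9, and 0 lower. Quantile normalization and testing with no minimum level each ended all 9 calls, with 0.355% and 0.0% of all genes called higher.

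Both knockout libraries stood above both control libraries in 24 of the 31 members (77.4%), against 36.2% of all genes. Both stood below both control libraries in 1 member, Dhx58 (3.23%, against 16.0% of all genes). The libraries overlapped in 6 members, Ddx58, Oasl1, Oasl2, Rsad2, Usp18 and Parp12. Of the 9 calls, 4 (Ifih1, Xaf1, Isg15 and Psmb8) were also made without each library in turn. Without control replicate 1 the call was lost for Gbp2, Gbp3, Parp9 and Zbp1, and 5 members were called; without control replicate 2 it was lost for those and Tap1, and 5 members were called, 4 of them among the 9. Without knockout replicate 1, 24 members were called higher, but 5257 of all 14100 genes were too (37.3%), and without knockout replicate 2 the counts were 21 members higher and 2 lower, with 20.9% and 22.0% of all genes.

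These are bulk samples, in which fewer cells of a type and less RNA per cell cannot be told apart. The 21 fibroblast feeder markers, a cell type that was in the cultures, summed to 592 and 758 RPM in knockout and 534 and 566 RPM in control, with none at 0. Of the 20 tested, 3 were called higher (Col1a1, Pdgfra and Twist1), against 3.01% of all genes, and 0 lower, with a median log2 change of 0.36. Of the same 20, 7 were higher and 0 lower at an unadjusted p under 0.05, against 16.5% and 3.6% of all genes. The 11 blood and macrophage markers summed to 9.94 and 8.07 RPM in knockout and 7.41 and 8.59 RPM in control, and neither limma nor limma-voom called any of the 3 tested, 0 of which had an unadjusted p under 0.05. Ptprc had no read in control. The 10 Sertoli and Leydig markers summed to 22.7 and 27.3 RPM in knockout and 22.6 and 21.8 RPM in control. The part of feeder cells, or of the germ cells with their own markers, in the rise of the interferon response genes was not tested.

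**Figure D1:**
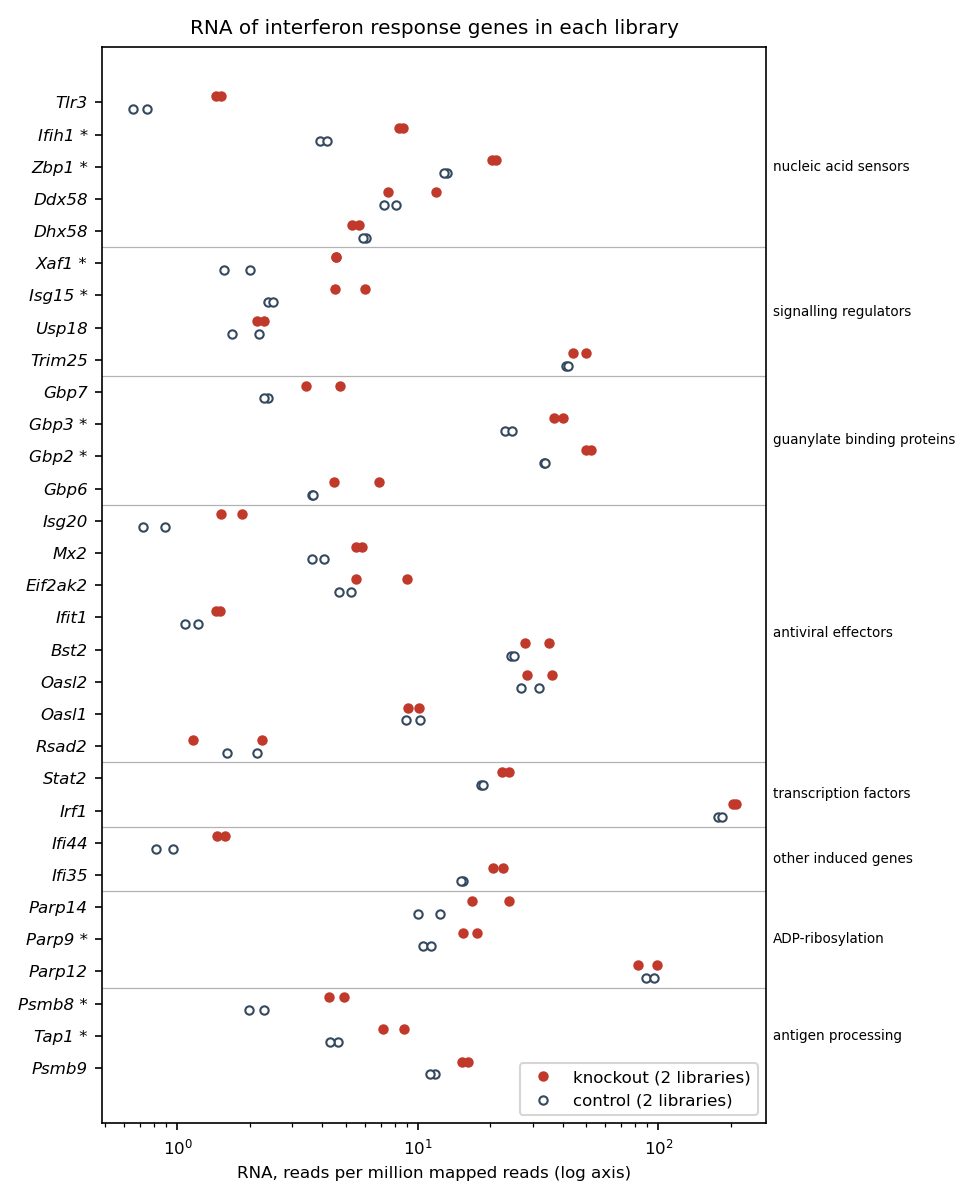
RNA level of each tested interferon response gene in RPM on a log axis, grouped by role, with 1 point per library for 2 knockout and 2 control libraries; an asterisk marks a limma adjusted p under 0.05. In 24 of the 31 genes both knockout points stand above both control points, as in Ifih1 (8.37 and 8.67 RPM in knockout, 3.90 and 4.19 RPM in control).

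Nucleic acid sensors stand at the start of the pathway. Ifih1, which encodes MDA5, a cytosolic sensor of long double-stranded RNA, had 8.37 and 8.67 RPM in knockout and 3.90 and 4.19 RPM in control. It rose 2.11-fold, a log2 change of 1.07 (SE 0.13, limma adjusted p = 0.0204), and the knockout libraries stood clear of the control libraries. Zbp1, a sensor of nucleic acids in the Z form that can trigger necroptosis, had 20.4 and 21.1 RPM in knockout and 13.2 and 12.8 RPM in control. It rose by a log2 change of 0.67 (SE 0.10, limma adjusted p = 0.0278), again with no overlap. Tlr3, the endosomal receptor for double-stranded RNA, had 1.44 and 1.52 RPM in knockout and 0.650 and 0.744 RPM in control. Its log2 change of 1.09 (SE 0.25) was as large as that of Ifih1 but missed the threshold (limma adjusted p = 0.0664), while limma-voom called it (adjusted p = 0.0484). The control level of Tlr3 was under the minimum for a test, which it passed only through knockout. Ddx58, which encodes RIG-I, had 11.9 and 7.52 RPM in knockout and 7.25 and 8.11 RPM in control, so that only the first knockout library was above control. Dhx58, which encodes the regulatory helicase LGP2, had 5.70 and 5.32 RPM in knockout and 6.06 and 5.93 RPM in control (log2 change -0.12, limma adjusted p = 0.676). Of these 3 RIG-I-like helicases Ifih1 alone was called, beside 3.01% of all genes called higher. Differences between the genes were not tested.

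Among signalling regulators, Xaf1, an interferon-induced antagonist of the apoptosis inhibitor XIAP, had 4.57 and 4.57 RPM in knockout and 1.56 and 2.01 RPM in control. Its log2 change of 1.37 (SE 0.19, limma adjusted p = 0.0230) was the largest of the 31 members. Isg15, a ubiquitin-like modifier, had 6.03 and 4.50 RPM in knockout and 2.39 and 2.50 RPM in control, and rose by a log2 change of 1.09 (SE 0.19, limma adjusted p = 0.0342). Both knockout libraries were above control in each of these genes. Usp18, which removes ISG15 from proteins and damps receptor signalling, had 2.29 and 2.15 RPM in knockout and 1.69 and 2.19 RPM in control, which overlap. Trim25, a ubiquitin ligase that acts on the RIG-I pathway, had 44.3 and 49.9 RPM in knockout and 41.4 and 41.9 RPM in control (log2 change 0.17, limma adjusted p = 0.403). Of the 4 regulators tested, 2 were called, beside 3.01% of all genes called higher.

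The transcription factors of the pathway were not called. Irf1, an early activator of interferon-gamma targets, had 205 and 210 RPM in knockout and 177 and 184 RPM in control (log2 change 0.20, limma adjusted p = 0.269). Stat2, the ISGF3 subunit with the main activation domain, had 22.4 and 24.0 RPM in knockout and 18.3 and 18.7 RPM in control (log2 change 0.33, limma adjusted p = 0.143). In both, the knockout libraries were the higher ones by a small margin, as they were the higher ones in 36.2% of all genes tested. Limma and limma-voom each called 0 of the 2, beside 3.01% and 2.94% of all genes called higher. At an unadjusted p under 0.05, 1 was higher, beside 16.5% of all genes. Irf7, the factor that amplifies the type I response, had 0 and 1 reads in knockout and 1 and 0 reads in control, and was not tested. With 0 reads in a library of this depth, a level of up to 0.0655 RPM in knockout replicate 1 and 0.0676 RPM in control replicate 2 is allowed (3 reads, counting error only).

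Guanylate binding proteins are interferon-induced GTPases that attack the vacuoles of intracellular pathogens. Gbp3 had 36.7 and 40.2 RPM in knockout and 23.0 and 24.7 RPM in control, and rose by a log2 change of 0.69 (SE 0.10, limma adjusted p = 0.0266). Gbp2 had 49.9 and 52.4 RPM in knockout and 33.4 and 33.8 RPM in control, and rose by a log2 change of 0.60 (SE 0.10, limma adjusted p = 0.0281). Replicates lay close together and apart from the other genotype in both genes. Gbp7 had 3.41 and 4.72 RPM in knockout and 2.37 and 2.28 RPM in control (log2 change 0.79, limma adjusted p = 0.0882). Gbp6 had 4.46 and 6.87 RPM in knockout and 3.64 and 3.65 RPM in control (log2 change 0.60, limma adjusted p = 0.181). All 4 tested members of the family were higher at an unadjusted p under 0.05 and 2 were called, beside 16.5% and 3.01% of all genes. These genes have close paralogs in clusters, and how the authors' counting divided shared reads is not given in the sources used here. Gbp5 had 2 and 4 reads in knockout and 2 and 9 reads in control and was not tested.

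The antiviral effectors, which act on viral RNA, proteins or particles, had 0 calls among 8 tested, both in limma and in limma-voom. Over all genes these called 3.01% and 2.94% higher, and with 8 tested 0 calls is near that share. Before adjustment, 3 of the 8 were higher at p under 0.05, beside 16.5% of all genes. Their median log2 change was 0.36. Isg20, an exonuclease that degrades single-stranded RNA, had 1.86 and 1.52 RPM in knockout and 0.884 and 0.721 RPM in control (log2 change 1.08, SE 0.25, limma adjusted p = 0.0725). Mx2, a dynamin-like GTPase, had 5.53 and 5.85 RPM in knockout and 4.06 and 3.63 RPM in control (log2 change 0.57, limma adjusted p = 0.0892). In both genes the knockout libraries were above the control libraries, as in 36.2% of all genes tested, and neither passed the test. Eif2ak2, which encodes the kinase PKR that halts translation on double-stranded RNA, had 5.51 and 8.99 RPM in knockout and 5.28 and 4.69 RPM in control, with the second knockout library well above the first. Bst2, the tether that holds budding virions at the membrane, had 35.1 and 28.0 RPM in knockout and 24.3 and 25.1 RPM in control (log2 change 0.34, limma adjusted p = 0.2). Ifit1, which binds RNA that lacks a host cap, had 1.44 and 1.5 RPM in knockout and 1.07 and 1.22 RPM in control. The genotypes did not overlap in these 3 either, which with 36.2% of all genes alike is no support for a rise, and no change was called. In the 2′-5′-oligoadenylate synthetase-like genes they did: Oasl2 had 28.5 and 36.1 RPM in knockout and 26.8 and 31.9 RPM in control, and Oasl1 had 9.13 and 10.1 RPM in knockout and 8.89 and 10.2 RPM in control. Rsad2, which encodes viperin, had 1.16 and 2.25 RPM in knockout and 1.61 and 2.14 RPM in control, and its log2 change of -0.20 was the lowest of the 31 members.

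Of the 3 antigen processing genes, 2 were called, beside 3.01% of all genes called higher. Psmb8, a catalytic subunit of the immunoproteasome, had 4.92 and 4.25 RPM in knockout and 1.98 and 2.28 RPM in control, and rose by a log2 change of 1.11 (SE 0.18, limma adjusted p = 0.0291). Tap1, a subunit of the transporter that carries peptides to class I molecules, had 7.14 and 8.79 RPM in knockout and 4.63 and 4.30 RPM in control, and rose by a log2 change of 0.83 (SE 0.15, limma adjusted p = 0.0401). Psmb9, another immunoproteasome subunit, had 16.2 and 15.3 RPM in knockout and 11.8 and 11.2 RPM in control (log2 change 0.45, limma adjusted p = 0.0803). Knockout libraries were above control libraries in all 3, as in 36.2% of all genes tested. The start sites of Tap1 and Psmb9 lie 211 bases apart on opposite strands in the deposited table and the genes overlap, as does Psmb8 with Gm20496 on the opposite strand. The strand setting of the RNA counts is not given in the sources used here, so reads of such overlapping genes may not be told apart.

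Of the 3 ADP-ribosyltransferase genes, 1 was called, beside 3.01% of all genes called higher. Parp9, which acts with the ubiquitin ligase DTX3L, had 15.4 and 17.6 RPM in knockout and 10.5 and 11.3 RPM in control, and rose by a log2 change of 0.59 (SE 0.12, limma adjusted p = 0.0490), just inside the threshold, and it was not called by limma-voom. Parp14 had 16.7 and 23.8 RPM in knockout and 10 and 12.4 RPM in control (log2 change 0.84, limma adjusted p = 0.0623), just outside it. Parp12, a zinc finger member of the family, had 82.1 and 98.6 RPM in knockout and 89.2 and 95.8 RPM in control, which overlap. Parp9 and Dtx3l overlap on opposite strands, with starts 681 bases apart. Of the remaining tested genes, Ifi35 had 22.5 and 20.6 RPM in knockout and 15.4 and 15.1 RPM in control (log2 change 0.50, limma adjusted p = 0.0568). Ifi44 had 1.46 and 1.57 RPM in knockout and 0.962 and 0.811 RPM in control (log2 change 0.78, limma adjusted p = 0.138). In both the knockout libraries were above the control libraries, as in 36.2% of all genes tested, and neither was called. Ifi27, under its older symbol and outside the counts, had 55.1 and 45.3 RPM in knockout and 37.2 and 34.6 RPM in control (log2 change 0.48, limma adjusted p = 0.0875).

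Most members had reads in both genotypes. Of the 38, 32 and 32 reached 1 RPM in the knockout libraries (84.2% each) and 28 and 29 in the control libraries (73.7% and 76.3%), against 57.0% and 57.3% of all genes in knockout and 55.5% and 55.6% in control. The members summed to 684 and 732 RPM in knockout and 555 and 583 RPM in control. Irf1, Parp12, Trim25, Gbp2, Oasl2 and Bst2 had the highest RPM in control, an order that is not corrected for transcript length and so is no order of expression. The 7 members under the minimum level were Gbp5, Ifit2, Ifit3, Irf7, Mx1, Rtp4 and Cmpk2. Rtp4, a chaperone of membrane receptors, had 55 and 35 reads in knockout and 14 and 16 reads in control. Ifit3 had 5 and 12 reads in knockout and 2 and 1 reads in control, while Ifit2 had 15 and 13 reads in knockout and 21 and 27 reads in control. Both knockout libraries were above both control libraries in Rtp4 and Ifit3 and below them in Ifit2. Over all genes tested, 36.2% stood above and 16.0% below in this way. Mx1 had 21 and 47 reads in knockout and 38 and 50 reads in control, and Cmpk2, a mitochondrial nucleotide kinase, 29 and 33 reads in knockout and 17 and 31 reads in control.

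Of 21 interferon ligand genes listed, 17 were in the RNA table, and these were near 0. Ifna15, Ifna16, Ifnl2 and Ifnl3 were not matched in it by symbol, so their level is not known. The 17 ligand genes in the RNA table together had 3 and 0 reads in knockout and 1 and 1 reads in control, so that none was tested and the highest stood at 0.0437 RPM. The count of 0 in the second knockout library allows up to 0.0749 RPM (3 reads). Type I receptor genes were read in every library. Ifnar1 had 84.9 and 105 RPM in knockout and 86.5 and 88.3 RPM in control, and Ifnar2 had 13.8 and 13.5 RPM in knockout and 12.7 and 11.5 RPM in control. Neither was called. Ifngr1, the ligand-binding chain of the interferon gamma receptor, had 27.2 and 26.2 RPM in knockout and 18.9 and 19.0 RPM in control, and rose by a log2 change of 0.49 (SE 0.10, limma adjusted p = 0.0478). Ifngr2, its partner, had 45.3 and 47.0 RPM in knockout and 41.1 and 43.9 RPM in control. Downstream of the receptors, limma and limma-voom called 0 of 12 JAK-STAT genes, whose median log2 change was 0.09, and 2 were higher before adjustment. Of 17 other sensors and adaptors both called 0, the median was 0.09, and 5 were higher before adjustment. Over all genes 16.5% were higher at an unadjusted p under 0.05, and limma called 3.01% higher.

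A list of other interferon-stimulated genes, none of them members, had 7 of 41 tested called higher, 0 lower and a median log2 change of 0.39, beside 3.01% and 0.06 over all genes. Before adjustment 24 were higher and 1 lower at p under 0.05, beside 16.5% and 3.6% of all genes. Limma-voom called 7 higher and 0 lower, beside 2.94% and 0.319% of all genes. This list too was chosen with earlier results of these data known. Tor3a, an ATPase of the endoplasmic reticulum, had 4.83 and 5.30 RPM in knockout and 1.61 and 2.39 RPM in control (log2 change 1.37, limma adjusted p = 0.0294). Tap2, the partner of Tap1 in the peptide transporter, had 11.4 and 13.1 RPM in knockout and 5.56 and 5.81 RPM in control (log2 change 1.1, limma adjusted p = 0.0204). The proteins encoded by the Ifitm genes block the fusion of viral and cell membranes, and 3 of these genes rose. Ifitm3 had 16.4 and 13.4 RPM in knockout and 7.02 and 7.28 RPM in control (log2 change 1.05, limma adjusted p = 0.0206). Ifitm1 had 12.4 and 12.6 RPM in knockout and 6.11 and 6.92 RPM in control (log2 change 0.94, limma adjusted p = 0.0213). Ifitm2 had 26.7 and 22.7 RPM in knockout and 15.5 and 14.6 RPM in control (log2 change 0.71, limma adjusted p = 0.0320). Knockout libraries lay above control libraries in each of the genes named here, as in 36.2% of all genes tested. Trim21, a cytosolic antibody receptor and ubiquitin ligase, had 26.6 and 31.8 RPM in knockout and 16.4 and 16.6 RPM in control (log2 change 0.81, limma adjusted p = 0.0255). Dtx3l was the seventh.

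**Figure D2:**
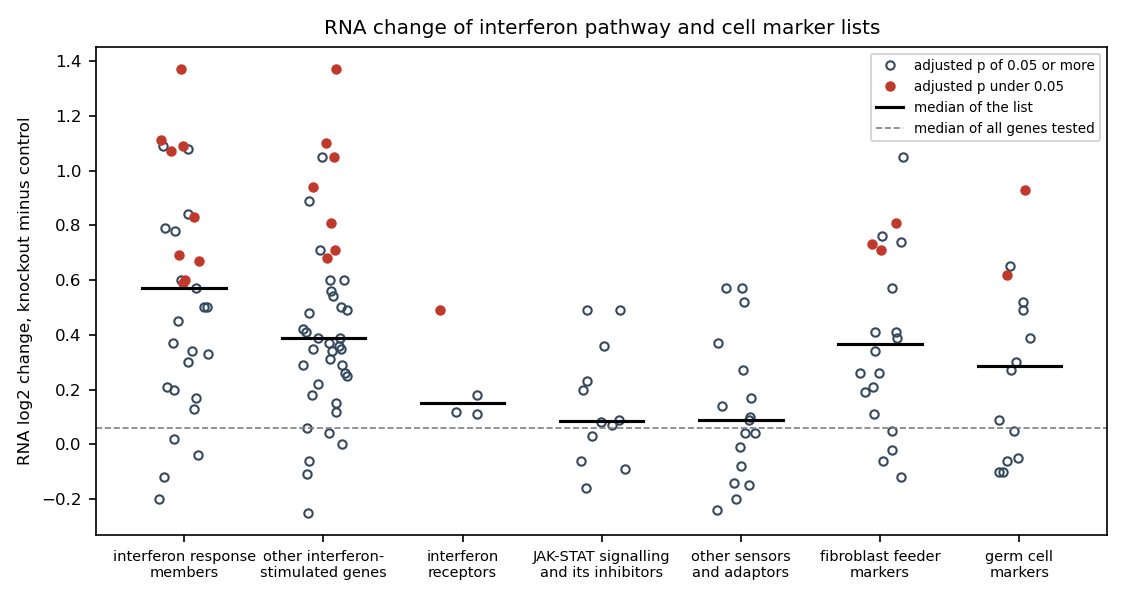
Log2 change of RNA, knockout minus control, for each tested gene of the interferon response genes, the pathway lists and the feeder and germ cell markers, with 1 point per gene, filled where the limma adjusted p was under 0.05, a bar at each median and a dashed line at the median of all genes tested (0.06). The members (median 0.57) and the other interferon-stimulated genes (median 0.39) stand higher on the axis than the JAK-STAT genes and the sensors and adaptors (median 0.09 each), and the feeder markers have a median of 0.36.

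No member was called in H3K4me3, higher or lower. Of the 40 members with a window, 33 had a mean of at least 1 RPM and were tested. Isg15 averaged 0.761 RPM in control and passed only through its knockout libraries. Gbp5 averaged 0.794 RPM in knockout and passed only through its control libraries. Both stay in the counts and the median below, where they are no support for a change. By limma 0 were called higher and 0 lower, against 0.0512% of all 15624 windows tested higher and 9.9% lower. At an unadjusted p under 0.05, 4 were lower (Gbp5, Tlr3, Ifit2 and Gbp3) and 0 higher, against 24.7% of all windows lower and 0.314% higher. Limma-voom called 3 lower (Gbp5, Ifit2 and Tlr3) and 0 higher, beside 16.6% of all windows lower and 0.717% higher. Both knockout libraries stood below both control libraries in 15 of the 33 members (45.5%, against 42.8% of all windows) and above them in 5 (15.2%, against 8.98%). The median log2 change was -0.37, against -0.26 over all windows tested. That background depends on the scaling: median centring moved it to 0.03, and the calls over all windows were 642 higher and 1430 lower under it, beside 8 and 1546 on the deposited scale. Of 18 feeder markers tested in H3K4me3, 4 were called lower and 0 higher, and their part in the values here was not tested. Quantile normalization gave 414 higher and 595 lower over all windows, and 8 members higher and 0 lower.

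Input DNA was tested over the same windows. Limma and limma-voom called 0 of the 33 members, and limma called 0 of all 15624 windows (0.0%). Before adjustment 1 member, Isg20, was higher at p under 0.05, against 2.21% of all windows, and 0 were lower, against 2.53%. Both knockout input libraries nevertheless stood below both control input libraries in 15 of the 33 members (45.5%), against 16.4% of all windows, and above them in 2 (6.06%, against 16.7%). The median log2 change of input at the members was -0.33, against -0.01 over all windows. Each H3K4me3 library set over its same-numbered input gave a median log2 change of -0.05 at the members and -0.31 over all windows.

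The windows that differed most in H3K4me3 were a mixed group. Gbp5 had 0.261 and 1.33 RPM in knockout and 1.83 and 3.44 RPM in control, a log2 change of -2.09 (SE 0.78, limma adjusted p = 0.0627). Gbp5 passed the minimum for a test only through control. Its value in the first knockout library rests on 1 read. Without that library the log2 change of Gbp5 was -0.92, and over input it was -0.89. Gbp3 had 1.04 and 1.75 RPM in knockout and 3.28 and 3.99 RPM in control, a log2 change of -1.42 (SE 0.68, limma adjusted p = 0.167). The first of these knockout values rests on 4 reads. Tlr3 had 3.39 and 5.49 RPM in knockout and 8.59 and 12.1 RPM in control, a log2 change of -1.24 (SE 0.49, limma adjusted p = 0.0794). In all 3 the knockout libraries lay below the control libraries, as in 42.8% of all windows tested, while RNA of Gbp3 rose in knockout. Ifit2 had 6.01 and 6.03 RPM in knockout and 13.1 and 12.2 RPM in control, a log2 change of -1.07 (SE 0.44, limma adjusted p = 0.0939); replicates lay close together, and 23 reads lay behind the value of the first knockout library. Without knockout replicate 1, the shallow library, the log2 change was -1.07 in Ifit2 and 1.77 in Irf7. Without knockout replicate 2, 15 members were called lower, with 44.1% of all windows.

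Irf7 and Isg15 went the other way. Irf7 had 1.83 and 3.98 RPM of H3K4me3 in knockout and 1.06 and 1.28 RPM in control, a log2 change of 1.21 (SE 0.72, limma adjusted p = 0.298). Isg15 had 1.57 and 1.75 RPM in knockout and 0.579 and 0.943 RPM in control, a log2 change of 1.16 (SE 0.80, limma adjusted p = 0.397). Knockout libraries were above control libraries in both, at low levels of the mark, as in 8.98% of all windows tested. Isg15 passed the minimum for a test only through knockout. Xaf1 had 1.31 and 1.87 RPM in knockout and 1.06 and 1.16 RPM in control, and Zbp1 had 1.31 and 2.05 RPM in knockout and 1.06 and 1.16 RPM in control. Among the other genes that rose in RNA, H3K4me3 was not higher in both knockout libraries. Ifih1 had 11.2 and 19.4 RPM in knockout and 18.4 and 21.1 RPM in control, Psmb8 8.62 and 9.53 RPM in knockout and 10.5 and 16.1 RPM in control, and Tap1 9.40 and 21.1 RPM in knockout and 17.9 and 21.0 RPM in control. Gbp2 had 2.61 and 5.07 RPM in knockout and 3.47 and 3.55 RPM in control, and Parp9 13.3 and 15.6 RPM in knockout and 14.1 and 19.4 RPM in control. Across the 27 members tested in both assays, the log2 changes of RNA and of H3K4me3 had a Pearson r of -0.02, given as a description, since the members share libraries. Tap1 and Psmb9 start 211 bases apart and count as 2 of these 27, although their windows may share H3K4me3 reads. On the deposited scale the RNA change was positive and the H3K4me3 change negative in 20 of the 27 (74.1%), against 45.4% of all 12124 genes tested in both. That count depends on the scaling of H3K4me3: it was 13 with median centring (48.1%, against 26.9% of all genes), 10 with quantile normalization (37.0%, against 28.0%) and 15 over input (55.6%, against 43.4%), alternatives chosen after the data were seen.

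**Figure D3:**
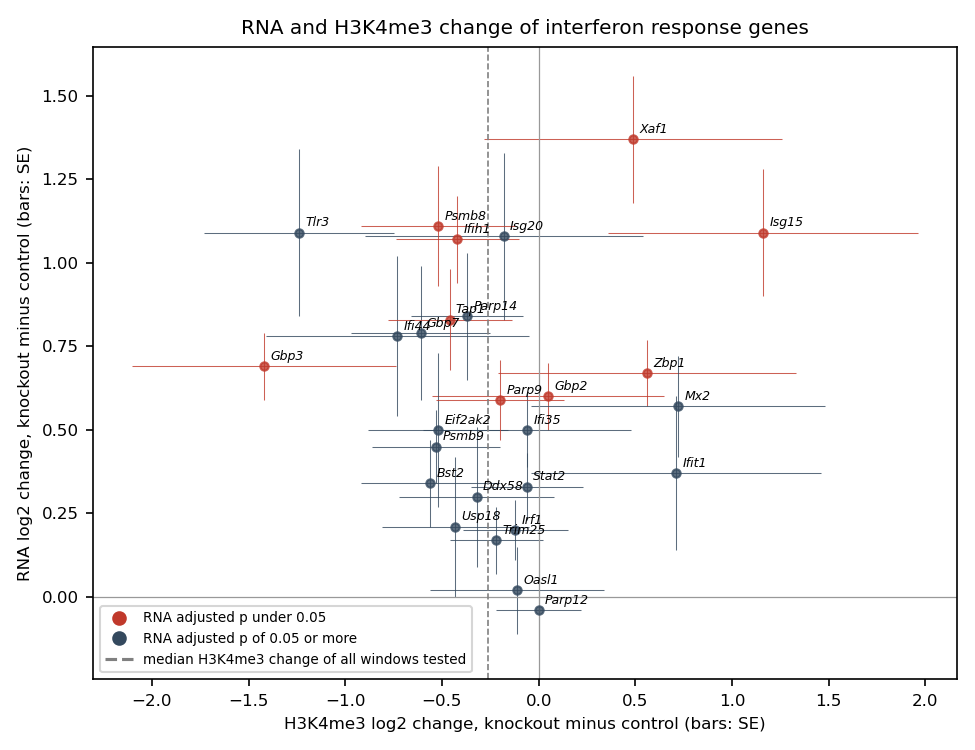
Log2 change of RNA (vertical axis) against log2 change of H3K4me3 (horizontal axis), knockout minus control, with 1 point per member tested in both assays (27). Points are red for the members called in RNA and dark for the others. Bars show the SE, and the dashed line is the median H3K4me3 change of all windows tested (-0.26). On the deposited scale, 20 of the 27 points lie in the part with higher RNA and lower H3K4me3 (13 with median centring), and Isg15 is a called gene on the other side (H3K4me3 change 1.16). Isg15 passed the H3K4me3 minimum only through knockout.

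Beside the members, Tlr4, the receptor for bacterial lipopolysaccharide from the list of other sensors and adaptors, had 0.783 and 2.23 RPM of H3K4me3 in knockout and 6.56 and 5.60 RPM in control, and fell by 2.20 on the log2 scale (SE 0.64, limma adjusted p = 0.0184). Its RNA, at 0.874 and 0.749 RPM in knockout and 0.650 and 0.676 RPM in control, was below the minimum for a test. Of the 18 genes of that list tested in H3K4me3, 1 was called lower, beside the 9.9% of all windows called lower, and limma called 0 of the receptors, JAK-STAT genes and other interferon-stimulated genes. Before adjustment 1 receptor, 1 JAK-STAT gene and 3 of the other interferon-stimulated genes were lower at p under 0.05, of 5, 11 and 33 tested, beside 24.7% of all windows. In limma-voom 1 of the other interferon-stimulated genes was called lower, beside 16.6% of all windows.

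Over input, members were sorted by a threshold. A window was taken to carry H3K4me3 at a log2 ratio over the same-numbered input of at least 1.5 in both libraries of a genotype, after 0.5 RPM was added to each. By this rule 22 of 40 members carried H3K4me3 in knockout (55.0%, against 51.6% of all windows) and 24 of 40 in control (60.0%, against 57.5% of all windows). Gbp3 and Ifi44 were the members above the threshold in control and not in knockout. Gbp3 stood at ratios of 0.88 and 1.53 in knockout and 2.13 and 2.41 in control, and Ifi44 at 0.52 and 1.77 in knockout and 2.54 and 1.64 in control. In each of the 2, 1 knockout library was above the threshold and 1 below it, so the loss rests on the first, shallow library. Just inside the threshold in control was Ifi44 at 1.64, and just outside it Isg20, at 1.92 and 1.40.

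In control, 15 members had neither H3K4me3 nor H3K27me3, (37.5% of members and 40.4% of all windows), namely Dhx58, Xaf1, Gbp6, Gbp9, Ifit1, Ifit3, Isg15, Isg20, Irf7, Irf9, Oasl2, Mx1, Mx2, Rsad2 and Zbp1, and in knockout 17 had neither (42.5% of members and 42.7% of all windows). RNA was read from many of these genes all the same, such as Zbp1 and Oasl2 above. The window of each gene is the authors' own, and its size and place are not given in the sources used here, so a start site in use elsewhere in the gene may lie outside it. Of the 10 unmarked members tested in RNA, 3 rose (Xaf1, Isg15 and Zbp1), with a median log2 change of 0.58. Of the 21 members with H3K4me3 alone in control that were tested in RNA, 6 rose (Ifih1, Gbp2, Gbp3, Parp9, Psmb8 and Tap1), with a median of 0.50. A rise in RNA was thus seen in members with and without the mark in their window.

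**Figure D4:**
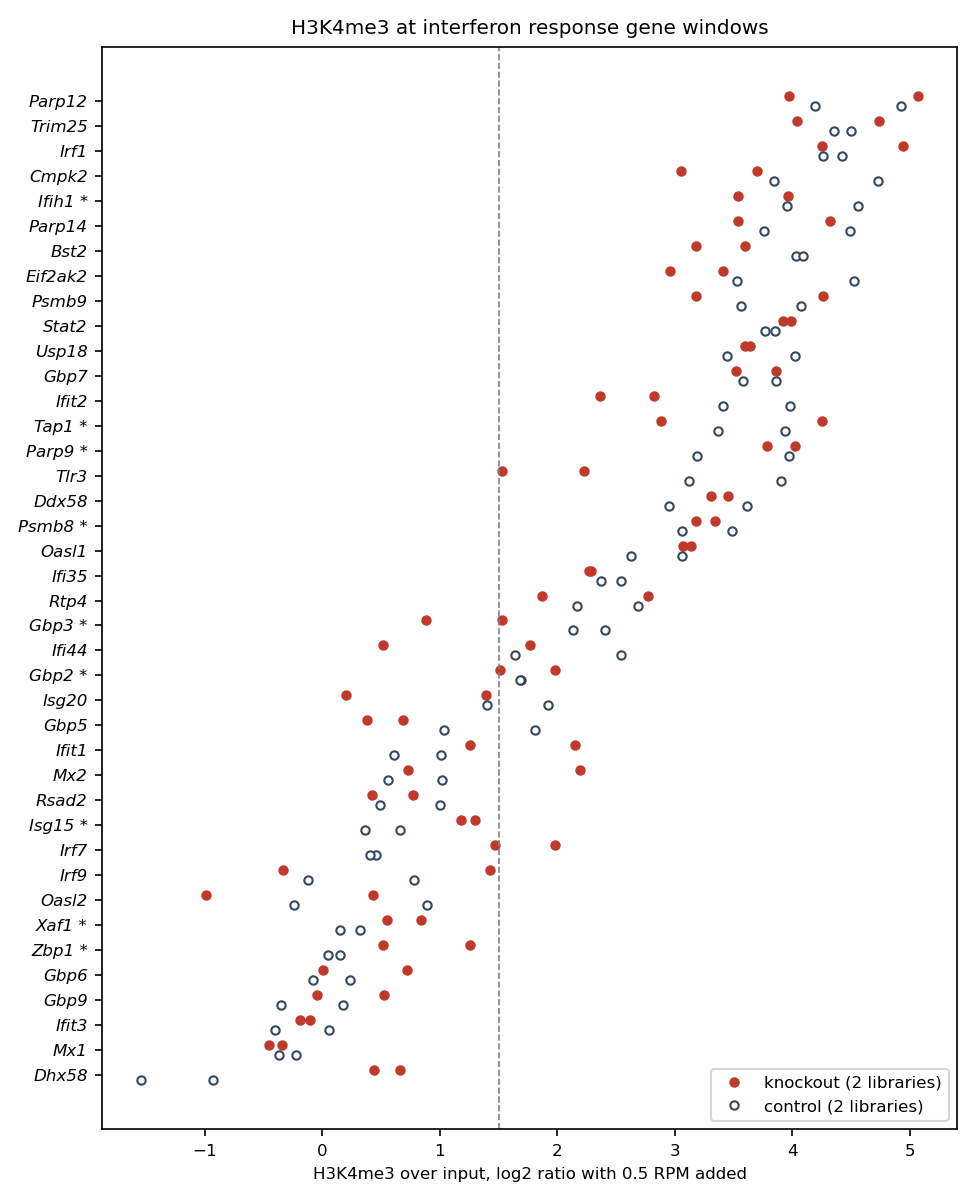
Log2 ratio of H3K4me3 over input at each of the 40 members, with 1 point per library for 2 knockout and 2 control libraries, and a dashed line at the threshold of 1.5; an asterisk marks a gene called higher in RNA. The ratios run on across the threshold without a gap, with Ifih1 at 3.54 and 3.96 in knockout and 3.95 and 4.56 in control, and Zbp1 at 0.52 and 1.26 in knockout and 0.15 and 0.05 in control.

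H3K27me3 was low at most members. Of 40 windows, 5 had a mean of at least 1 RPM and were tested, and limma and limma-voom called 0 of them. Among these, Eif2ak2 averaged 0.937 RPM in control and passed only through knockout. Of all 4807 windows tested, limma called 0.791% higher and 0.0% lower. Before adjustment 0 members were higher or lower at p under 0.05, against 12.0% of all windows higher and 0.125% lower. The split over all windows was 38 higher and 0 lower on the deposited scale, and 81 and 202 with median centring. Psmb8 had 3.65 and 2.47 RPM in knockout and 1.85 and 1.19 RPM in control, a log2 change of 1.02 (SE 0.55, limma adjusted p = 0.439), and it was the one tested member in which both knockout libraries stood above both control libraries (36.9% of all windows did so), and in 0 members were both below (3.14%). Ifit2 had 2.57 and 1.61 RPM in knockout and 1.85 and 0.916 RPM in control, a log2 change of 0.65 (SE 0.56, limma adjusted p = 0.707). Gbp5 had 3.04 and 2.56 RPM in knockout and 2.74 and 2.93 RPM in control. The libraries overlapped in these 2, as they did in Eif2ak2, at 0.945 and 1.42 RPM in knockout and 0.958 and 0.916 RPM in control, and in Cmpk2, at 1.08 and 1.52 RPM in knockout and 0.889 and 1.28 RPM in control. The median log2 change of the 5 was 0.31, against 0.45 over all windows tested, and the direction for Eif2ak2 and Cmpk2 turned under median centring, quantile normalization and division by input.

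At a log2 ratio over input of at least 1 in both libraries, 2 of 40 members carried H3K27me3 in knockout (5.0%, against 13.1% of all windows), Gbp5 and Psmb8. In control 1 member did (2.5%, against 9.79% of all windows), Gbp5. Psmb8 was the 1 member with both marks in knockout (2.5%, against 7.42% of all windows), at H3K27me3 ratios of 2.04 and 1.58 in knockout and 0.83 and 0.20 in control, and 0 members had both in control (0.0%, against 7.67% of all windows). The H3K27me3 change of Psmb8 itself was not called (limma adjusted p = 0.439). Input of Psmb8 was 0.507 and 0.492 RPM in knockout and 0.821 and 0.972 RPM in control, so the ratios also hold a lower input in knockout. RNA of Psmb8 rose in these bulk samples, as given above. Whether mark and RNA lie in the same cells was not tested. H3K9me3 was at a log2 ratio of at least 1 over the mean of its inputs in both control libraries in 0 of 40 members, against 1.92% of all windows. Oasl2 came nearest, with ratios of 1.04 and 0.22.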

How the data were processed

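RNA, H3K4me3, H3K27me3, H3K9me3 and input were measured in 20 libraries, 2 per group. The authors deposited log2 RPM values (reads over the mapped total of a library), for 1 window per gene (chromatin) and per gene (RNA), not divided by input or by length; the place of the window and the strand setting are not given in the sources used here. The submitters' processing notes name, without roles, TopHat2 2.0.14, Bowtie 1.1.1, Trim Galore 0.4.0, CASAVA 1.8 and the build mm10. The deposited log2 values stepped in whole reads within 0.1 (100% of values). Genes without a read stood at 0.9 of a read and are printed here as 0 RPM, and 1 read was worth 0.0157 to 0.261 RPM, which limits low genes.

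Each assay was tested across its whole table in R 4.3.3 by a two-sided limma (3.58.1) fit with eBayes and trend set, on the deposited log2 values, knockout minus control, with Benjamini-Hochberg adjustment over all features tested. The minimum was a mean log2 RPM of 0 for RNA and a mean of 1 RPM for windows. The fit was also run on simulated counts with known changes and the same fixed dispersion for all features. That setting differs from these libraries, so the run does not show how sound the calls here are. A fold change is 2 to the power of the log2 change. Limma-voom on the recovered reads, other scalings, other minimums, another pseudocount, a replicate block, division by input and leaving out each library were tried as alternatives. Named with full values were the members called, the 6 with the largest absolute log2 change in each comparison, and the 6 with the highest RNA level in control. Values of the other members complete each role and were added after they were seen. The members and lists were chosen with earlier results of these data known. Intervals and floors cover counting error only.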

Additional observations from a re-analysis of the deposited data

How the results depend on the processing

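Under the alternatives, every RNA call among the members kept its positive direction, but the count of calls moved. Of the members, 9 were called higher in RNA on the deposited scale, 0 under quantile normalization (with 50 of all 14100 genes), 0 with no minimum level (with 0 of all 21314 genes), 4 of 21 tested at a minimum 4 times higher, and 5 to 24 without 1 library; 0 to 2 were called lower without 1 library. The median RNA log2 change of 0.57 was 0.47 with median centring, 0.36 with quantile normalization, 0.50 with no minimum, 0.50 at the higher minimum and 0.49 to 0.64 without 1 library. H3K4me3 calls at members numbered 0 on the deposited scale. Median centring gave 1 lower, limma-voom 3 lower, quantile normalization 8 higher, no minimum 1 higher, and leaving out 1 library 0 to 15 lower and 0 to 1 higher. The median H3K4me3 log2 change of -0.37 was -0.08 with median centring, 0.11 with quantile normalization, -0.05 over input and -0.54 to -0.09 without 1 library. The median H3K27me3 log2 change of 0.31 was -0.27 with median centring, -0.31 with quantile normalization and 0.10 to 0.51 without 1 library, and at the higher minimum 0 members were left to test. H3K27me3 of Eif2ak2 turned to -0.27, -0.31 and -0.13 and that of Cmpk2 to -0.32, -0.33 and -0.25 with median centring, quantile normalization and division by input. That of Cmpk2 was -0.0 to 0.53 without 1 library, lowest without control replicate 1. Gbp5, at -0.02, was -0.14 to 0.10 without 1 library, turning without knockout replicate 2 or control replicate 2, and was 0.46 over input. With thresholds of 2 and 1.5, 1 member carried H3K27me3 in knockout. The cause of these shifts was not tested. With 1 library left out, the lone library of its group is assumed to vary like the others. Same-numbered libraries deviated together with r = 0.091 in RNA, 0.149 in H3K4me3 and 0.062 in H3K27me3 over 2 pairs, and the labels do not tie a number to a line, so whether they pair is not known; the replicate block gave 18 members higher in RNA (9.16% of all genes), 3 lower in H3K4me3 (25.8% of all windows) and 1 higher in H3K27me3 (25.1%).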
